A study of Mus musculus with 4 samples.

Results

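The genes described here mark mesothelium, the sheet of flat cells that covers the lung surface as visceral pleura. They are Wt1, Upk3b, Msln, Gpm6a, Aldh1a2 and Rspo1, taken by exact gene symbol with every probe set that the platform annotation gives them. All 6 were on the array, of 12393 genes named by at least 1 probe set with a single symbol, and they were read by 8 probe sets. Expression was measured on 4 Affymetrix arrays of whole mouse lung, with 2 biological replicates per group, all labelled embryonic day 18. The Sftpc-Nmyc lungs carried a transgene in which 3.7 kb of the human SFTPC promoter, active in lung epithelium, drives mouse Nmyc1 (Mycn, a MYC family transcription factor) fused to the fluorescent protein EGFP. These embryos came from injection of fertilized F2 eggs of C57BL/6J and DBA/2J background, so independent founders carry their own insertions, and the design text gives day 18.5 for them. The wild-type lungs are labelled only as normal, with no strain given, and nothing beyond whole lung at that day is stated to be shared by the groups. The comparison asks what Nmyc in the epithelium changes, and here it is read in genes of a cell layer outside that epithelium.

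Mesothelium forms early on the lung bud, secretes growth factors and retinoic acid to the mesenchyme beneath it, and contributes fibroblasts and smooth muscle. WT1 is the zinc finger transcription factor classically used to mark it. UPK3B and mesothelin lie on its surface, ALDH1A2 makes retinoic acid, and R-spondin 1 is a secreted protein that raises Wnt signalling through LGR receptors.

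RefSeq promoter windows (GRCm38.p6, from 250 bases before to 50 after the start) are shown for the members with an entry, because 4 of the members were lower together and the misexpressed protein binds the E-box CACGTG. By symbol, Upk3b, Gpm6a, Aldh1a2 and Rspo1 matched, and Msln and Wt1 did not. The windows lie at chr5:136038246-136038545 (Upk3b), chr8:54779184-54779483 (the first of 2 Gpm6a starts), chr9:71215539-71215838 (Aldh1a2) and chr4:124986180-124986479 (Rspo1), all on the plus strand. Capitals mark a GC box in Gpm6a and a CCAAT box in Aldh1a2.
Upk3b: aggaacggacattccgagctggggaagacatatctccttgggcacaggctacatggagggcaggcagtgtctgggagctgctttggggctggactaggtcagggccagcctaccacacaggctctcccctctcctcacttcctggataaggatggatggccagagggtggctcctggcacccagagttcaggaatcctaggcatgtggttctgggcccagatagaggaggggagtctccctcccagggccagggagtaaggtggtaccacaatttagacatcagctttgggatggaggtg
Gpm6a: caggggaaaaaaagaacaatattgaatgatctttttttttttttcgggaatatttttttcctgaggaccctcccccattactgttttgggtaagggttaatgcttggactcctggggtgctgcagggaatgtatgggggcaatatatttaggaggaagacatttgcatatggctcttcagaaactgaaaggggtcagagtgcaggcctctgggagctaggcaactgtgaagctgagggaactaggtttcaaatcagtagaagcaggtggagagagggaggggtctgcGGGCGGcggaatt
Aldh1a2: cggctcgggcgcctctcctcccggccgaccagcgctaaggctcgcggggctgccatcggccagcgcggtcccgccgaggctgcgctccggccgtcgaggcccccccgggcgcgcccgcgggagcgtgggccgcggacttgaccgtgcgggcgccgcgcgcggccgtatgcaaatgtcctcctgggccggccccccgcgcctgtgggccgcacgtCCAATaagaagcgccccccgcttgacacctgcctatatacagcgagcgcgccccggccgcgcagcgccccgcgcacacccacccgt
Rspo1: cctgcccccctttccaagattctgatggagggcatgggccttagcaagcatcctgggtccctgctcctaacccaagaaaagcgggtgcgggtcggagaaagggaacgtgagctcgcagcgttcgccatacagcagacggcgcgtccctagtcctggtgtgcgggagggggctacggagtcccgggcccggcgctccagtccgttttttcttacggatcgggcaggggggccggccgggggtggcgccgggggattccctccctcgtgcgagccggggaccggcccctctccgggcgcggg
The Upk3b window held 2 CpG dinucleotides at 58.7% G and C, and the Aldh1a2 window held 50 at 78%. The E-box CACGTG was found in 0 of 5 member windows (Gpm6a has 2), against 7.15% of 32851 windows of the same length. The other motifs, searched on both strands, were the WT1 and EGR site GCGTGGGNG (0 of 5, against 1.9%), the GC box GGGCGG (1 of 5, against 35.7%), the TATA box TATAAA (1 of 5, in the second Gpm6a window, against 13.6%) and the CCAAT box (1 of 5, against 37.4%). No 2 of these motifs overlapped in a member window, and a match or its lack says only which letters this window holds.

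All arrays had the same mean signal of 150.05 after trimming, with medians from 65.45 to 70.8, and replicate arrays correlated at r = 0.968 (Sftpc-Nmyc) and 0.965 (wild type). Mycn probe set 1425922_a_at, which reads the misexpressed gene, gave signals of 455.2 and 356 in Sftpc-Nmyc lungs against 34.7 and 32.1 in wild-type lungs. Probe set 1417155_at ran the other way (25.1 and 27.2 against 78.7 and 63.5). In the remaining Mycn probe set, 1425923_at, the groups overlapped (61.8 and 43.8 against 57.3 and 18.8). Xist signals were 59.3 and 63.9 in Sftpc-Nmyc lungs against 1707.8 and 1506.1 in wild-type lungs, and those of the Y-linked gene Eif2s3y were 58 and 61.7 against 3.1 and 0.8. Sex and genotype cannot be told apart in any comparison below. No detection calls were used, so the 27 Bacillus control probe sets serve as a guide to background. Their median signal was 9.25 and their highest 73.4, and 15 of the 32 member signals lay above the highest. The highest is a strict guide, because the median signal of every array lay below it.

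The mesothelial genes that passed the test were all lower in Sftpc-Nmyc lungs. Upk3b and Msln, the brightest members, were 3.50-fold and 4.42-fold lower. Rspo1, which was dimmer, was 2.17-fold lower. Gpm6a also passed, but all its signals lay below the highest Bacillus control. Its log2 fold change moved with the offset added before the logarithm, from -1.50 at an offset of 1 to -0.66 at 50. Aldh1a2 was lower on both Sftpc-Nmyc arrays without passing the test. Wt1 was also lower on both, but was too dim to enter this test. With limma and Benjamini-Hochberg adjustment over 8675 genes, 4 of the 5 members that passed a filter on dim genes were lower at an adjusted p under 0.05 and none was higher, where 15.7% of all tested genes were lower, 14.7% higher and 30.4% either. The filter kept genes by their mean over all arrays. Gpm6a lay just inside it, at the 30.2 percentile, with a Sftpc-Nmyc mean below the filter, and Wt1 was left out. With no filter, 3 of all 6 members were lower (Upk3b, Msln and Gpm6a), against 8.42% of 12393 genes. The median log2 fold change of the 5 tested members was -1.35, and that of all tested genes was -0.02. The members' median is the value of Gpm6a, and so carries the limits given for that gene. Without wild-type replicate 2 the members called numbered 2. Over all genes 2636 were called, against 1757 without Sftpc-Nmyc replicate 2, 1699 without wild-type replicate 1 and 1379 without wild-type replicate 2. Signals are relative to the whole of each array. In whole lung, fewer mesothelial cells, less RNA per cell and a smaller mesothelial share of the lung's RNA cannot be told apart.

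Upk3b encodes a uroplakin, a membrane protein of the mesothelial surface. Probe set 1454881_s_at gave deposited signals of 167 and 152.2 on the Sftpc-Nmyc arrays, against 479.7 and 675.9 on the wild-type arrays. The Sftpc-Nmyc arrays were close to each other and far below the lower wild-type array. The means were 159.6 ± 10.5 in Sftpc-Nmyc lungs and 578 ± 139 in wild-type lungs (SD, n = 2 each), and the log2 fold change on the log2(signal + 5) scale was -1.81 ± 0.19 (SE, 95% interval -2.24 to -1.38, limma adjusted p = 0.00071). A second probe set, 1434237_at, made from the same sequence record, read 107.8 and 89.2 in Sftpc-Nmyc lungs against 275.8 and 340.7 in wild-type lungs. It differed by -1.58 ± 0.18 (SE, limma adjusted p = 0.013 over all 22626 probe sets, of which 5.71% were lower). The probe sets share their source and are not independent readings.

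Msln encodes mesothelin, a surface protein held by a lipid anchor that binds the mucin MUC16. Its signals were 219.9 and 105.1 in Sftpc-Nmyc lungs against 570.1 and 810.2 in wild-type lungs. The groups did not overlap, but Sftpc-Nmyc replicate 2 was far below replicate 1, a gap that Upk3b did not have. Its log2 fold change of -2.14 ± 0.32 (SE, 95% interval -2.88 to -1.41, limma adjusted p = 0.0025) was the lowest of the members, and 0.611% of all tested genes lay lower. The intervals of Msln and Upk3b overlap, so these data do not order them.

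**Figure D1:**
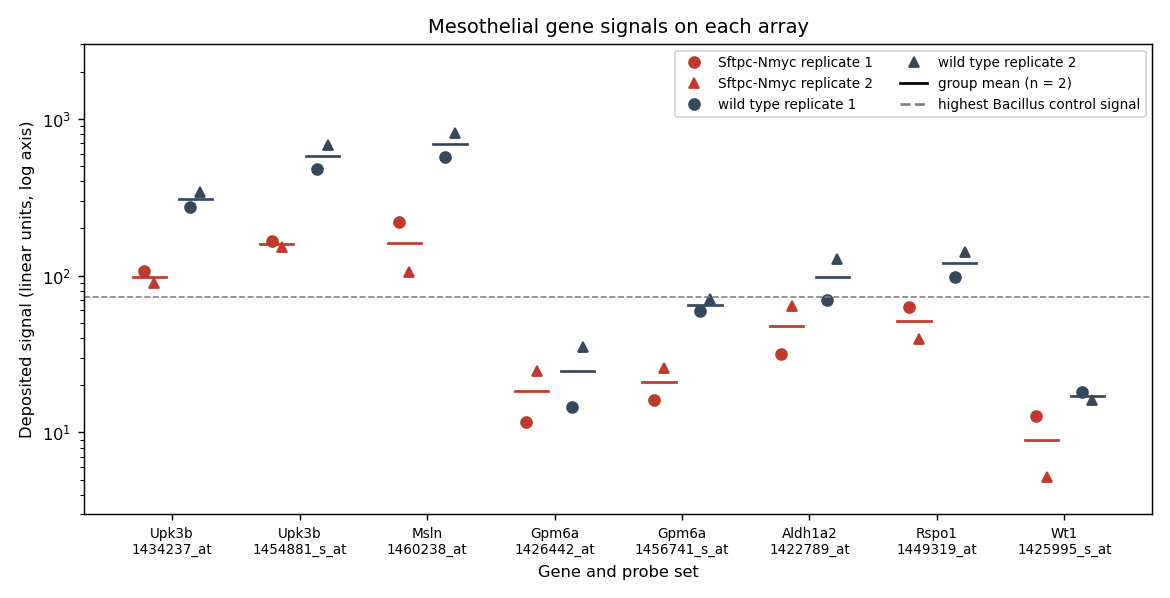
Deposited signal of each mesothelial probe set on each array (log axis), Sftpc-Nmyc left and wild type right in each pair, with group means as bars (n = 2) and the highest Bacillus control signal of 73.4 as a dashed line. Upk3b and Msln are separated by group and above the line on every array, while Wt1 and both Gpm6a probe sets stay below it.

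Gpm6a encodes a membrane glycoprotein of the proteolipid family, known from neurons as well as mesothelium. Probe set 1456741_s_at read 16 and 25.9 in Sftpc-Nmyc lungs against 59.2 and 71.3 in wild-type lungs. All of these signals lay below the highest Bacillus control, and the groups did not overlap. The log2 fold change was -1.35 ± 0.32 (SE, limma adjusted p = 0.016 over the filtered genes, and 0.058 over all probe sets). The call ended without Sftpc-Nmyc replicate 1 (-1.11, limma adjusted p = 0.060). Gpm6a fell below the filter, and was not tested, without either wild-type array or with the mean of its probe sets. The other Gpm6a probe set, 1426442_at, was dim and its groups overlapped, at 11.7 and 24.8 in Sftpc-Nmyc lungs against 14.5 and 34.9 in wild-type lungs (log2 fold change -0.20 ± 0.51, limma adjusted p = 0.84 over all probe sets). The Gpm6a result thus rests on 1 of 2 probe sets. Of the lists of other cell types, that of neurons, glia and neuroendocrine cells had 1 of 3 tested genes lower, where 15.7% of all tested genes were lower. Its summed signals over 8 measured genes were 218.7 and 283.1 in Sftpc-Nmyc lungs against 434.6 and 441.5 in wild-type lungs. The called gene was Stmn2, a tubulin-binding protein of neurons, at 47.2 and 41.4 in Sftpc-Nmyc lungs against 177.9 and 149 in wild-type lungs (-1.72 ± 0.20, limma adjusted p = 0.0011). The other tested genes, Prph and Sox10, named outside the rule, stood at -0.96 and -0.60 without passing. The part of these cells in the Gpm6a signal was not tested.

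Rspo1, the Wnt-raising ligand, read 63 and 39.2 in Sftpc-Nmyc lungs against 98 and 141.3 in wild-type lungs. Both Sftpc-Nmyc signals lay below the highest Bacillus control and both wild-type signals above it. The log2 fold change was -1.12 ± 0.29 (SE, 95% interval -1.79 to -0.45, limma adjusted p = 0.023 over the filtered genes, and 0.096 over all probe sets). The call ended with no filter (limma adjusted p = 0.072), without Sftpc-Nmyc replicate 2 (-0.78, limma adjusted p = 0.097) and without wild-type replicate 2 (-0.86, limma adjusted p = 0.15).

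Aldh1a2, the main retinoic acid-forming enzyme of the embryo, read 31.5 and 63.8 in Sftpc-Nmyc lungs against 70 and 127.4 in wild-type lungs. The groups met closely, with Sftpc-Nmyc replicate 2 just under wild-type replicate 1. Its log2 fold change of -0.91 ± 0.37 (SE, 95% interval -1.77 to -0.05) did not pass (limma adjusted p = 0.10). The log2 fold change was -1.33 without Sftpc-Nmyc replicate 2 and -1.37 without wild-type replicate 1. It was -0.48 without Sftpc-Nmyc replicate 1 and -0.47 without wild-type replicate 2.

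Wt1 was read by 1 probe set at the dim end of the array, with 12.7 and 5.2 in Sftpc-Nmyc lungs against 18.1 and 16.2 in wild-type lungs. The defining transcription factor of mesothelium was thus far below the highest Bacillus control in every lung, wild type included. Its log2 fold change was -0.61 ± 0.40 (SE, 95% interval -1.64 to 0.42, limma adjusted p = 0.40 over all probe sets), and no difference was detectable at this signal.

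**Figure D2:**
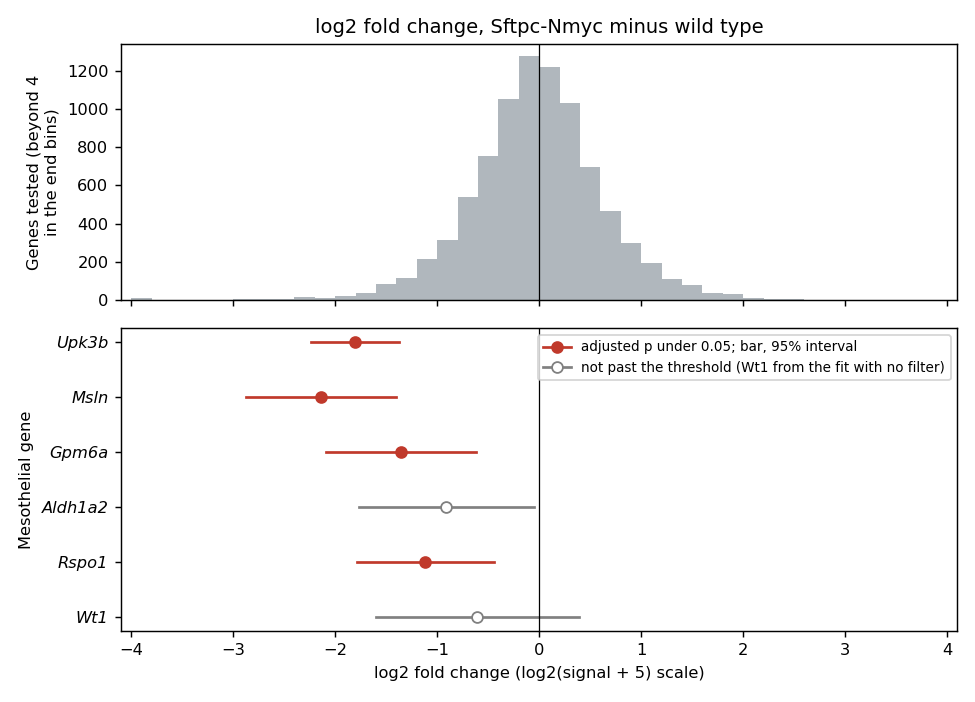
Histogram of log2 fold changes of the 8675 tested genes (top) and the members' log2 fold changes with 95% intervals (bottom), Sftpc-Nmyc minus wild type. The 4 filled members lie between -2.14 and -1.12, left of the bulk of genes, and the intervals of neighbouring members overlap.

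In the order of their log2 fold changes the members ran Msln, Upk3b, Gpm6a, Rspo1, Aldh1a2 and Wt1. Each neighbour's interval overlaps the next, so the order is a description. Both Sftpc-Nmyc arrays were under both wild-type arrays in 7 of 8 probe sets by deposited signal, where 32.1% of all non-control probe sets had this order. Within the wild-type group, replicate 2 was above replicate 1 in 7 of 8 member probe sets, with Wt1 the exception, where 47.6% of all non-control probe sets had replicate 2 higher. Within the Sftpc-Nmyc group, replicate 2 was higher in 3 of 8, those of Gpm6a and Aldh1a2. Summed over the 6 genes by their brightest probe sets, the signal was 510.1 and 391.4 in Sftpc-Nmyc lungs against 1295.1 and 1842.3 in wild-type lungs, and most of that sum is Upk3b and Msln.

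A wider list of genes of mesothelium and other serosal linings was lower in part. Beside the counts of this list and those that follow, 15.7% of all tested genes were lower and 14.7% higher. Of the 25 genes of the wider list 22 were measured and 18 tested. Of those tested 8 were lower, none was higher and 10 did not pass, with a median log2 fold change of -0.41. By statistic, the strongest fall was that of Podxl, a sialomucin that mesothelium shares with podocytes and endothelium, at 333.4 and 303.5 in Sftpc-Nmyc lungs against 803.6 and 1041.1 in wild-type lungs (-1.53 ± 0.16, limma adjusted p = 0.00073). Ptgis, prostacyclin synthase, read 83.8 and 64.2 in Sftpc-Nmyc lungs against 224 and 239.4 in wild-type lungs (-1.57 ± 0.19, limma adjusted p = 0.0012). Igfbp6, which binds IGF2, read 322.9 and 165.2 in Sftpc-Nmyc lungs against 892.5 and 1277 in wild-type lungs (-2.20 ± 0.30, limma adjusted p = 0.0018). Against the median and without passing stood Efemp1, the matrix protein fibulin-3, at 0.74 ± 0.26 (limma adjusted p = 0.062), and Calb2, calretinin, at 0.50 ± 0.26 (limma adjusted p = 0.18). The 4 keratins of simple epithelia on this list, which lung epithelium also makes and which were picked out after their values were seen, did not pass, with log2 fold changes of -0.24 (Krt19), -0.23 (Krt7), 0.29 (Krt18) and 0.31 (Krt8). Of this list, Bnc1, Tbx18, Cdh3 and Itln1 were measured but left out by the filter. Among these Cdh3, P-cadherin, singled out after its values were seen, read 42.7 and 74.2 in Sftpc-Nmyc lungs against 11.1 and 13.8 in wild-type lungs, with no overlap.

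**Figure D3:**
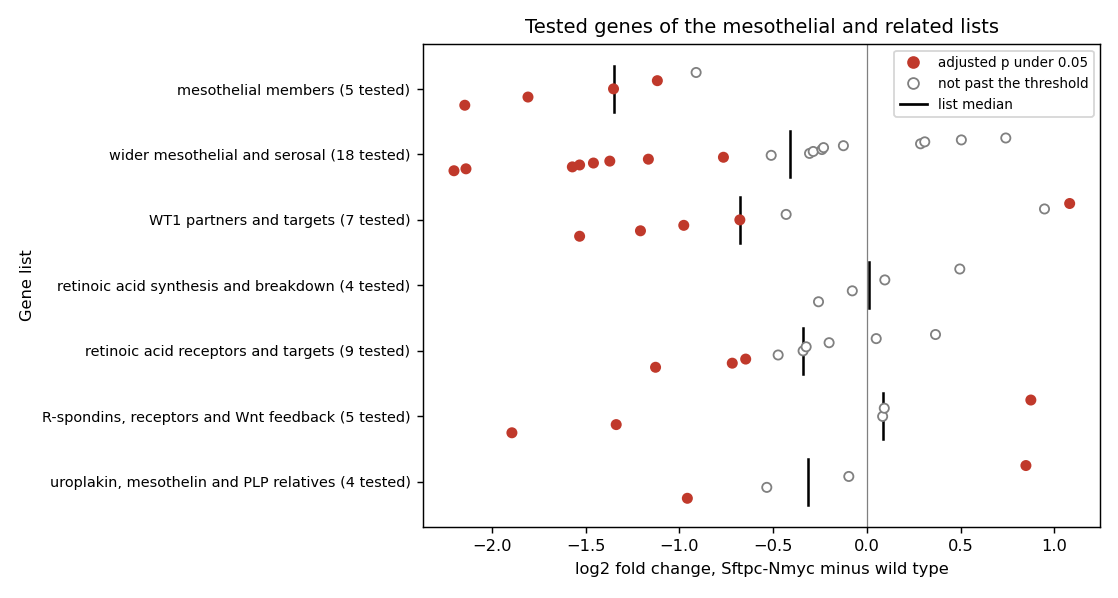
log2 fold change of each tested gene in the mesothelial and related lists, Sftpc-Nmyc minus wild type, with filled points past the threshold and list medians as bars. The tested members and 8 filled genes of the wider list sit left of zero, while the retinoic acid synthesis list holds no filled point.

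By profile, the 5 tested genes closest to the members' mean were Parp3, Krt80, Podxl, Fam43a and Serpinb6b. The members, sex-linked genes and symbols ending in Rik or starting with LOC or with Gm and a digit were passed over. Closeness is the Euclidean distance between centred log2 values over the 4 arrays, from 0.118 for Parp3 to 0.152 for Serpinb6b, while the members themselves lay from 0.344 (Upk3b) to 0.94 (Msln) from their own mean. The 4 arrays in 2 groups leave little to tell profiles apart beyond the size of the group difference. Krt80, a keratin, read 57 and 54.2 in Sftpc-Nmyc lungs against 136.2 and 178.5 in wild-type lungs, and Serpinb6b, a protease inhibitor, read 247.3 and 234.6 against 564.5 and 724.3.

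For Msln by itself, the nearest profile among all tested genes was that of Pdpn, podoplanin, a mucin-like surface protein of mesothelium, lymphatic vessels and alveolar type I cells, and the next was Igfbp6. This search of single members was made after the values were seen. Pdpn read 208.6 and 107 in Sftpc-Nmyc lungs against 561.9 and 792.2 in wild-type lungs (-2.14 ± 0.30, limma adjusted p = 0.0019). The ratio of Msln to Pdpn signals was 1.05 and 0.982 on the Sftpc-Nmyc arrays and 1.01 and 1.02 on the wild-type arrays, and that of Msln to Igfbp6 was 0.681 and 0.636 against 0.639 and 0.634. These ratios restate how Pdpn and Igfbp6 were picked, as the nearest of 8675 tested genes, and are a description. All 6 tested genes of the alveolar type I list, which also holds Pdpn, were lower, with summed signals of 7881.8 and 5468.5 in Sftpc-Nmyc lungs against 12632.4 and 12455.9 in wild-type lungs, and their part in the Pdpn signal was not tested.

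**Figure D4:**
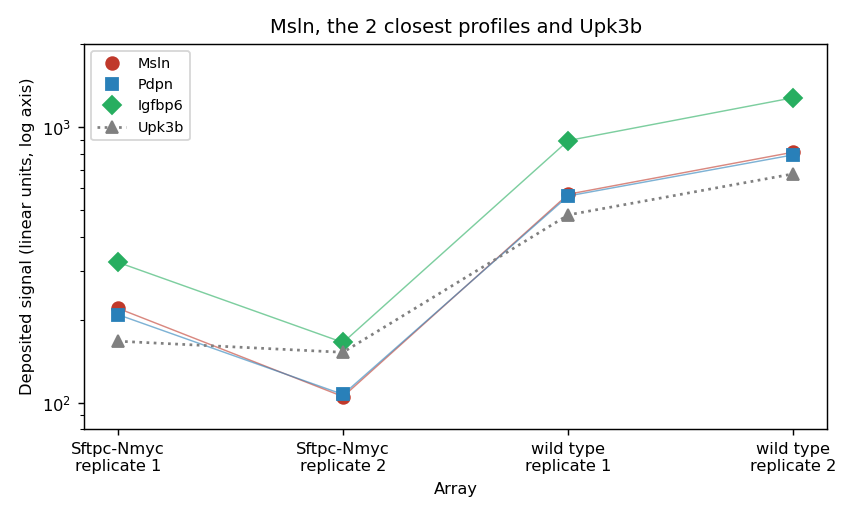
Deposited signals of Msln, Pdpn, Igfbp6 and Upk3b on the 4 arrays (log axis), 1 point per array. Msln, Pdpn and Igfbp6 run in parallel, with Sftpc-Nmyc replicate 2 lowest, while the Upk3b signals of 167 and 152.2 hardly separate the Sftpc-Nmyc replicates.

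Partners and reported targets of WT1 were mixed: of 12 genes 10 were measured and 7 tested, with 4 lower and 1 higher. Besides Podxl, Spry1, a feedback inhibitor of receptor tyrosine kinases, read 354.6 and 326.9 in Sftpc-Nmyc lungs against 775 and 797.8 in wild-type lungs (-1.21 ± 0.13, limma adjusted p = 0.00082). Igf2, a fetal growth factor, was higher at 3805.5 and 4299.1 in Sftpc-Nmyc lungs against 1728.8 and 1712.3 in wild-type lungs (1.08 ± 0.11, limma adjusted p = 0.0006). Wnt4 did not pass, at 0.95 ± 0.39 (limma adjusted p = 0.10). These genes are made by many lung cells, and a link of their change to Wt1 was not tested.

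Around Aldh1a2, no tested gene of retinoic acid synthesis and breakdown passed. Of 12 genes 9 were measured and 4 tested, with a median log2 fold change of 0.01. None of those tested was a Cyp26 enzyme of retinoic acid breakdown, and Cyp26a1 was left out by the filter. Aldh1a1, a related retinaldehyde dehydrogenase, stood at -0.26 ± 0.30, and Dhrs3, a retinaldehyde reductase, at -0.08 ± 0.30. Of 10 retinoic acid receptors and targets 9 were tested, with 3 lower and none higher. The 3 were Tgm2, a transglutaminase (714.9 and 631.8 in Sftpc-Nmyc lungs against 1364.4 and 1534.8 in wild-type lungs, -1.13 ± 0.13, limma adjusted p = 0.00091), and the homeobox factors Hoxa5 (-0.65 ± 0.15, limma adjusted p = 0.016) and Hoxb5 (-0.72 ± 0.21, limma adjusted p = 0.037). The receptors tested did not pass, with Rarb at 0.37 ± 0.22 and Rxrb at 0.05 ± 0.22 against the median of -0.34. Rxra, Rarg and Rara, named outside the rule, stood at -0.47, -0.32 and -0.20. Rxrg was left out by the filter.

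Around Rspo1, 8 of 12 genes of the R-spondin and Wnt feedback list were measured and 5 tested, with 2 lower and 1 higher. Nkd1, a feedback inhibitor and target of Wnt signalling, read 52.4 and 52.1 in Sftpc-Nmyc lungs against 213.4 and 212.8 in wild-type lungs (-1.89 ± 0.17, limma adjusted p = 0.00046). Axin2, another such target, read 120 and 109.8 in Sftpc-Nmyc lungs against 283.3 and 314.8 in wild-type lungs (-1.34 ± 0.16, limma adjusted p = 0.0011). Rnf43, a ubiquitin ligase that removes Wnt receptors and is countered by R-spondins, was higher (0.88 ± 0.27, limma adjusted p = 0.041). It read 82.2 and 63.8 in Sftpc-Nmyc lungs against 45.8 and 33.8 in wild-type lungs. Only the first of these signals lay above the highest Bacillus control. The receptors Lgr5 and Lgr6 stood at 0.08 ± 0.24 and 0.09 ± 0.24 without passing.

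Relatives of the surface members differed in direction. Upk3a, the uroplakin closest by name to Upk3b and known from urothelium, was higher at 107.8 and 148.6 in Sftpc-Nmyc lungs against 64.1 and 77.5 in wild-type lungs (0.85 ± 0.22, limma adjusted p = 0.025). Gpm6b, the paralog of Gpm6a, was lower at 136.9 and 138.4 in Sftpc-Nmyc lungs against 244.7 and 305 in wild-type lungs (-0.96 ± 0.17, limma adjusted p = 0.0051). The other tested genes of that list, Upk1a and Upk2, did not pass.

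Markers of other tissues moved in the same comparison. Genes of cardiac muscle, which in mouse also sheathes the pulmonary veins, were lower in 9 of 11 tested, with summed signals of 741.6 and 1000.6 in Sftpc-Nmyc lungs against 3914.9 and 2591.3 in wild-type lungs over 12 measured genes, none at 0. Epicardium, the mesothelium of the heart, is known to make several of the members too, and its part in the result was not tested. Between the wild-type arrays, replicate 2 over replicate 1 was 1.42 for the summed members and 0.662 for cardiac muscle. For the list shared with epicardium, whose sum is mostly Tcf21, it was 1.22. These ratios are a description. Of the 3 measured genes of the list shared with epicardium, Tcf21 fell (-0.86 ± 0.19, limma adjusted p = 0.011), and Tbx18 and Bnc1 were left out by the filter. Tcf21 is also on the list of fibroblasts and mesenchyme, and its counts include it.

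Against the wild-type mean, the summed member signal was 0.325 and 0.25 in Sftpc-Nmyc lungs. The same ratios were 0.387 and 0.367 for endothelium (8 of 8 tested genes lower), 0.603 and 0.581 for fibroblasts and mesenchyme (9 of 11 lower) and 0.504 and 0.663 for smooth muscle (3 of 6 lower, none higher). For pan-epithelial genes, of which 4 of 8 were higher and none lower, they were 1.44 and 1.45. For alveolar type I genes, also epithelial, they were 0.628 and 0.436, and for cartilage genes, of which 0 of 2 tested passed, 0.885 and 1.03. Over all tested genes 15.7% were lower and 14.7% higher. By median log2 fold change the tested members stood at -1.35, with cardiac muscle at -2.31, alveolar type I at -1.86 and endothelium at -1.38. Fibroblasts and mesenchyme stood at -0.94 and smooth muscle at -0.74. Sums follow the brightest genes, and a large part of the alveolar type I sum is Hopx (-0.59), named outside the rule. A difference between the members and these lists was not tested.

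**Figure D5:**
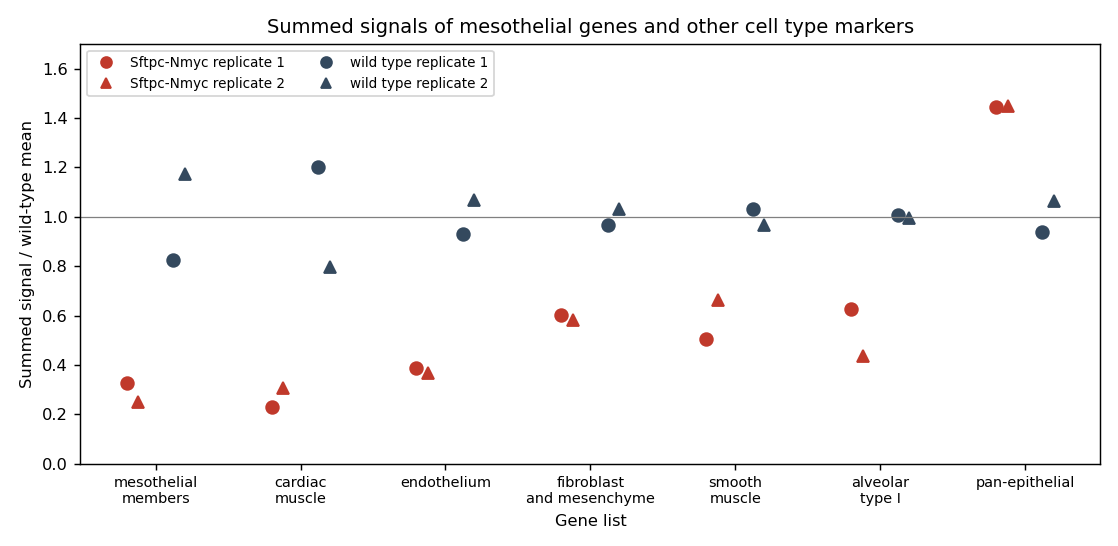
Summed deposited signal of the mesothelial members and of other marker lists on each array, divided by the wild-type mean of that list. Members lie at 0.325 and 0.25 in Sftpc-Nmyc lungs, near cardiac muscle and endothelium, while pan-epithelial genes lie at 1.44 and 1.45.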

How the data were processed

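The deposited files hold linear intensities from 22690 probe sets on each array. No source used here gives the authors' software, background correction or scaling. Per the labels' protocols, total RNA was extracted with an RNeasy kit and labelled with biotin. The platform annotation gave 1 symbol to 20380 probe sets, several to 691 and none to 1555, and 64 were controls. The members and gene lists were chosen with earlier results of these data known.

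Signals were floored at 1, raised by 5, put on the log2 scale, which with this offset understates changes of dim genes, and quantile normalized without the controls. Each gene was read by its brightest probe set, and genes under the 30th percentile of mean level were left out. The model (limma 3.58.1, R 4.3.3, with moderated variances that follow a trend on the mean) had group as its only term, and the code was tested on simulated data. P-values were adjusted by Benjamini and Hochberg's method over every feature tested, with a threshold of 0.05. An error after ± is limma's standard error, except where SD is written. The 8 member probe sets were also fitted among all 22626 non-control probe sets without a filter. With 2 arrays per group, the number of arrays limits the precision.

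Named genes were all members, Mycn, up to 3 genes of each pathway list past the threshold with the largest statistic, up to 2 against its median, up to 2 per marker list (given mostly as counts and sums) and the 5 closest profiles. Names outside this rule are marked, or are Lgr5, Lgr6, Upk1a, Upk2, Xist and Eif2s3y and the genes listed as untested, chosen after their values were seen. Alternatives were the offset, normalization, filter, choice of probe set, variance trend, replicate block and leaving out each array.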

Additional observations from a re-analysis of the deposited data

How the results depend on the processing

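Msln and Upk3b kept direction and call in every gene-level alternative tried. With a 50th percentile filter 2 members were called of 2 left to test. Replicate numbers are tied by the labels to no litter or batch, and same-numbered arrays did not deviate together (correlation -0.023 over probe sets). With a replicate block, 2218 genes and 5 of 5 tested members were called, Aldh1a2 included (-0.91, limma adjusted p = 0.032). Without the filter Rspo1 stayed at -1.12 without passing. Averaging probe sets called 5 genes higher in the other lists, against 3. In the fit of all probe sets, dropping the variance trend ended the calls of 1434237_at (-1.58, limma adjusted p = 0.057), 1454881_s_at (-1.81, 0.056) and the Msln probe set 1460238_at (-2.14, 0.079), and an offset of 50 called the Gpm6a probe set 1456741_s_at (-0.66). Leaving out each array in turn gave 1379 to 1906 genes called, 637 to 1044 lower and 742 to 907 higher, with 2 to 4 members and 1 to 3 genes higher in the other lists. Gpm6a ran from -1.58 to -1.11 without either Sftpc-Nmyc array, and fell below the filter without either wild-type array or with probe sets averaged. Over all 4 such fits Aldh1a2 ran from -1.37 to -0.47 and Rspo1 from -1.43 to -0.78. Probe set 1426442_at ran from -0.76 to 0.36 (0.15 without Sftpc-Nmyc replicate 1, 0.36 without wild-type replicate 2), 1434237_at from -1.74 to -1.44, 1454881_s_at from -2.06 to -1.57 and 1460238_at from -2.64 to -1.63, the last 3 not passing in any of these fits over all probe sets. The cause of these changes was not tested beyond the smaller number of arrays. Signals near the control probe sets limit what Wt1, Gpm6a, Aldh1a2 and Rspo1 can show.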

Other observations

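The closest single profiles of the other members, searched after the values were seen, were Vnn1, a pantetheinase, and Glp1r, a peptide hormone receptor, for Upk3b (distances 0.0789 and 0.0954), Pdgfra, a receptor of fibroblasts, for Gpm6a (0.0769), Lipg, endothelial lipase, for Aldh1a2 (0.145) and Dusp1, a phosphatase of MAP kinases, for Rspo1 (0.0656). Vnn1 read 56.6 and 52.7 in Sftpc-Nmyc lungs against 189.1 and 244 in wild-type lungs, and Pdgfra read 120.8 and 160.2 against 312.1 and 401.3. Dusp1 read 182.8 and 117.9 in Sftpc-Nmyc lungs against 277.7 and 384.1 in wild-type lungs. This search again passed over sex-linked genes and symbols ending in Rik or starting with LOC or with Gm and a digit. Among the genes searched, none was nearest to more than 1 member.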
